A study of Schizosaccharomyces pombe with 8 samples.

Results

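The 10 regulators of meiotic entry described here are ste11, mei2, mei3, pat1, mei4, mmi1, rep1, atf21, atf31 and red1 of the fission yeast Schizosaccharomyces pombe. They were chosen by name, through the symbol or a synonym in the table that pairs array probes with genes, and they make up 10 of the 4752 genes with spots of their own. The study asked which genes respond to mating pheromone, and it used 8 two-colour arrays of PCR-made probes, each gene usually in 2 spots. M-factor was added to P cells (h+ cyr1-) and P-factor to M cells (h- cyr1-, with a further mutation that the labels write as sax2- and the study's methods as sxa2), in both cases at 1 μg/ml and 30 °C. RNA taken after 2, 4 and 6 h was hybridised against untreated RNA of the same strain, 1 array for each time point, and 2 further arrays set M cells against P cells directly, untreated and after pheromone. All strains lack cyr1, the adenylate cyclase, which lets growing cells respond to pheromone without nitrogen starvation, and per the methods the silent mating-type cassettes were deleted in both strains. The cells were haploids of a single mating type, so no zygotes could form and meiosis itself was not under study.

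In fission yeast, entry into meiosis is set by a short chain of regulators. Ste11, an HMG-box transcription factor, activates mei2, which encodes the RNA-binding protein that switches cells to meiosis. The kinase Pat1 holds Ste11 and Mei2 inactive until Mei3, its inhibitor, is made in a cell that carries both mating types. Mmi1, a YTH-domain protein, marks meiotic transcripts such as that of mei4 for destruction in growing cells together with Red1 and the nuclear exosome, and Mei2 takes Mmi1 out of action. Mei4, a forkhead factor, then drives the genes of the meiotic divisions, and Rep1 works with the MBF complex in premeiotic DNA synthesis. Atf21 and Atf31 are bZIP proteins of the ATF/CREB family.

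Ste11 binds a 10-base site, and the study's supplementary list of best promoter sites holds 4 of the 10 regulators. The sites are shown because these 4 genes, ste11 itself among them, had the 4 highest mean responses to M-factor among the regulators. Each is written 5′ to 3′ on the strand that reads like the consensus AACAAAGAAA, with 4 flanking bases on each side in lower case and the site in capitals.
ste11 (chromosome II): ttgcAACAAAGAAAcaac
mei2 (chromosome I): aacaAACAAAGAAAagag
rep1 (chromosome II): gtaaAACAAAGAAAggat
mei4 (chromosome II): aaaaAGCAAAGAAAatta
The sites of ste11, mei2 and rep1 matched the consensus at every base. That of mei4 carried 1 substitution, A2G, given as the consensus base, the position counted from the 5′ end of the site, and the base found. An exact consensus stood at 34 of the 161 sites listed (21.1%). The list covers genes the study picked from these same arrays, so a place in it is not independent of the responses below.

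The courses and cell types were first checked against marker genes. Among the general pheromone markers, 5 of 5 rose in P cells given M-factor and 4 of 5 in M cells given P-factor (fus1, a formin gene needed for cell fusion, had mean log2 ratios of 3.08 and 3.51). The M cell markers mam1, mam2 and mam3 were above 0 in untreated M over P cells (2.15, 1.65 and 0.47) and the P cell markers map2 and map3 were below (-2.94 and -1.23). In the courses the markers were less clean: map2 rose in P cells given M-factor (3.16) but map3 had -0.35, not called, and of the M cell markers mam1 and mam3 also rose there (1.02 and 1.60), besides rising in M cells given P-factor (3.17 and 5.94). Values are log2 ratios of treated over untreated RNA, averaged over the spots of a gene. The median standard deviation (SD) between spots of a gene ran from 0.19 to 0.34 on the 6 time course arrays. The time points stood in for replicates: the mean over the 3 arrays of a course was tested with limma, and an adjusted p of at most 0.05 was called. Both courses were fitted together, and the spread of a gene was estimated from all 6 arrays. The SE of a gene is therefore the same for both pheromones, and leaving out an array of either course can change the calls of both. Nothing says that the arrays of a course came from separate cultures or separate untreated RNA, so the p-values measure only the spread between these arrays.

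Of the 9 regulators with a value on all 6 time course arrays, all 9 passed the test with M-factor and the same 9 with P-factor. Of all genes tested, 47.2% passed with M-factor and 36.4% with P-factor. Transcripts of 7 regulators rose with both pheromones (ste11, mei2, mei3, pat1, mei4, rep1 and atf31), beside 24.1% of all genes with M-factor and 18.1% with P-factor. Those of mmi1 and atf21 fell, beside 23.2% and 18.3%. A stricter count, at least 2-fold up at each of 2, 4 and 6 h, held 5 of 10 regulators with M-factor (ste11, mei2, mei3, mei4 and rep1) and 3 of 9 with P-factor (ste11, mei2 and rep1), where 4.25% and 3.24% of all genes met it. Only atf21 among the regulators was at least 2-fold down at every time, with either pheromone, as were 2.6% and 2.34% of all genes. The P-factor count of 3 rested on the 2 h array: without it 5 regulators met the rule.

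**Figure D1:**
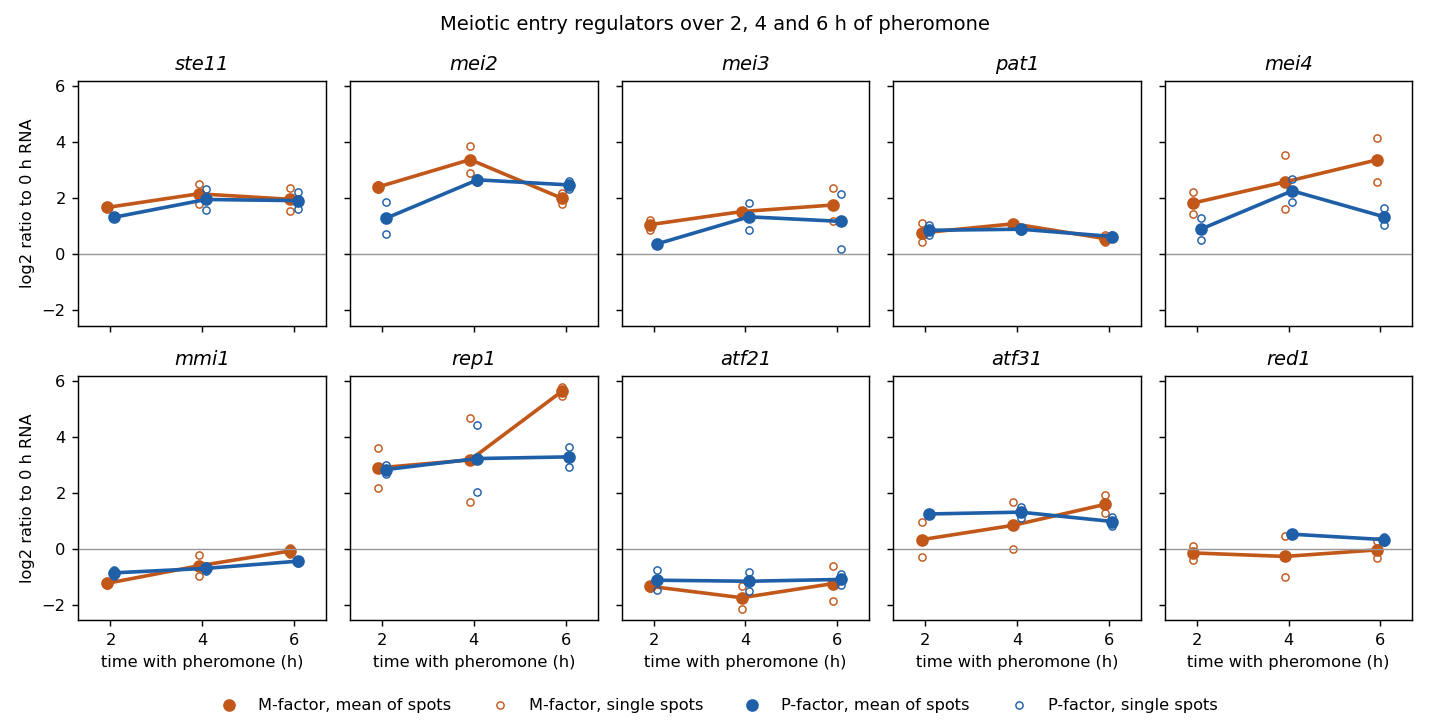
Log2 ratio of treated over untreated RNA (vertical axis) against hours with pheromone (horizontal axis) for the 10 regulators, with M-factor in P cells in orange and P-factor in M cells in blue. Filled points are the mean over the spots of a gene, open points are single spots, and each time point is 1 array. The courses of rep1 lie highest, reaching 5.62 at 6 h of M-factor, those of mmi1 and atf21 lie below 0, and red1 has no value at 2 h of P-factor.

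The strongest response was that of rep1, which encodes the zinc-finger activator of genes for premeiotic DNA synthesis. Its log2 ratio was 2.89 after 2 h of M-factor, 3.18 after 4 h and 5.62 after 6 h, and the P-factor course read 2.83, 3.22 and 3.28. The 6 h value with M-factor stood far above the other 5, which lay between 2.83 and 3.28. It was 49.2-fold on the linear scale, the fourth highest (rank 4) of 4658 genes measured on that array. The mean over the 3 times was 3.90 ± 0.43 (SE; 14.9-fold, adjusted p = 0.00017) with M-factor and 3.11 ± 0.43 (8.65-fold, adjusted p = 0.00093) with P-factor. Both spots of rep1 were high at 6 h of M-factor (5.47 and 5.77), whereas they parted widely at 4 h, at 4.66 and 1.69 with M-factor and at 4.41 and 2.03 with P-factor. Even the lowest single spot of rep1, 1.69, was more than 2-fold up.

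The transcript of mei2, the meiotic switch itself, came next. It stood at 2.40, 3.37 and 1.99 over the M-factor course and at 1.28, 2.65 and 2.47 over the P-factor course. All 6 values were above 1, that is, more than 2-fold, and both courses were highest at 4 h, where M-factor gave 10.3-fold (rank 21 of 4646). The means were 2.59 ± 0.30 (adjusted p = 0.000252) and 2.13 ± 0.30 (adjusted p = 0.00107). At 2 h of P-factor, the lowest of the 6 values, the spots read 1.84 and 0.71.

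The master regulator ste11 rose more evenly. M-factor gave ratios of 1.66, 2.15 and 1.95, P-factor 1.32, 1.95 and 1.91. Both courses had gained most of their height by 2 h and differed little between 4 and 6 h. The mean was 1.92 ± 0.17 with M-factor (3.79-fold, adjusted p = 7.79e-05) and 1.72 ± 0.17 with P-factor (3.31-fold, adjusted p = 0.000209). The SD over the 3 times, 0.25 and 0.35, was smaller than for mei2 (0.71 and 0.75).

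For mei4, the forkhead gene whose transcript Mmi1 removes in growing cells, M-factor gave 1.82, 2.57 and 3.36 and P-factor 0.89, 2.26 and 1.33. With M-factor the ratio climbed at each step to 10.3-fold, while with P-factor it was highest at 4 h. The means were 2.58 ± 0.31 (adjusted p = 0.000259) and 1.49 ± 0.31 (adjusted p = 0.00589). Without the 4 h array of P-factor the second mean was 1.11 and no longer called (adjusted p = 0.0581), nor was it called on the higher numbered spot alone (1.13, adjusted p = 0.0937). The spots of mei4 disagreed more than most, for example 3.53 and 1.62 at 4 h of M-factor and 2.59 and 4.13 at 6 h. In the order of mean responses to M-factor, mei2 and mei4 did not differ beyond their errors, nor, with P-factor, did ste11 and mei4.

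The pair that gates Mei2 rose less. The Pat1 inhibitor gene mei3 read 1.05, 1.52 and 1.75 in the M-factor course and 0.37, 1.33 and 1.17 in the P-factor course. Every value was above 0, with the 2 h value the lowest in both courses. Its means were 1.44 ± 0.21 (adjusted p = 0.000765) and 0.96 ± 0.21 (adjusted p = 0.00846), and the P-factor call was lost without the 4 h array (mean 0.77, adjusted p = 0.0830) and without the 6 h array (0.85, adjusted p = 0.0653). At 6 h of P-factor the spots of mei3 read 2.14 and 0.20, the widest gap among the regulators on that array. Either spot alone gave no call with P-factor.

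The kinase gene pat1 had the smallest rise, from 0.56 to 1.08 on the arrays of M-factor (0.76, 1.08 and 0.56 in order of time) and from 0.63 to 0.89 on those of P-factor (0.85, 0.89 and 0.63). The P-factor values lay within the range of the M-factor values and only 1 reached 2-fold. The means were 0.80 ± 0.15 (1.74-fold, adjusted p = 0.00276) and 0.79 ± 0.15 (1.73-fold, adjusted p = 0.00443). The P-factor mean without the 4 h array was 0.74, just past the threshold (adjusted p = 0.0504).

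The elimination factor gene mmi1 moved the opposite way and drifted back. P cells given M-factor had ratios of -1.22, -0.60 and -0.07, M cells given P-factor -0.85, -0.69 and -0.43. Both courses were lowest at 2 h and nearest to 0 at 6 h. The mean was -0.63 ± 0.21 (adjusted p = 0.0333) with M-factor and -0.66 ± 0.21 (adjusted p = 0.0354) with P-factor, 1.55-fold and 1.58-fold lower. These were the weakest calls of the 9. With M-factor the call was lost without that course's 2 h array (-0.34, adjusted p = 0.192), without its 4 h array (-0.65, adjusted p = 0.0896) and without the 4 h array of P-factor (adjusted p = 0.0527), and with P-factor it was lost without any one of its arrays (-0.56 to -0.77, adjusted p from 0.0836 to 0.156). Its partner red1, a zinc-finger protein gene, had ratios of -0.14, -0.26 and -0.03 in the M-factor course, and of 0.53 and 0.34 after 4 and 6 h of P-factor. It had no value at 2 h of P-factor and was left out of the fit for that reason. In a fit that allowed the missing value, neither mean passed (-0.15, adjusted p = 0.436 and 0.43, adjusted p = 0.0947).

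The bZIP genes went in opposite directions. M-factor brought atf21 to -1.33, -1.74 and -1.23, P-factor to -1.11, -1.15 and -1.08. All 6 spot averages were below -1, and the P-factor averages had an SD of 0.03. Single spots lay further apart, at -1.47 and -0.75 (2 h), -1.49 and -0.81 (4 h) and -1.27 and -0.90 (6 h) of P-factor. At 6 h of M-factor the spots of atf21 read -1.85 and -0.61. The means were -1.43 ± 0.15 (2.70-fold lower, adjusted p = 0.000131) and -1.11 ± 0.15 (2.17-fold lower, adjusted p = 0.000865). For atf31 the values were 0.33, 0.85 and 1.59 over the course of M-factor, as against 1.25, 1.31 and 0.98 over that of P-factor. The course with M-factor began low and climbed, whereas that with P-factor stood above 1 at both 2 h, where 1 spot was measured, and 4 h, its highest point. The means of atf31 were 0.92 ± 0.22 (adjusted p = 0.00765) and 1.18 ± 0.22 (adjusted p = 0.00362). Its spots parted at 2 h (-0.29 and 0.96) and 4 h (1.68 and 0.01) of M-factor, and the M-factor mean without the 6 h array was 0.59 (adjusted p = 0.0425).

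**Figure D2:**
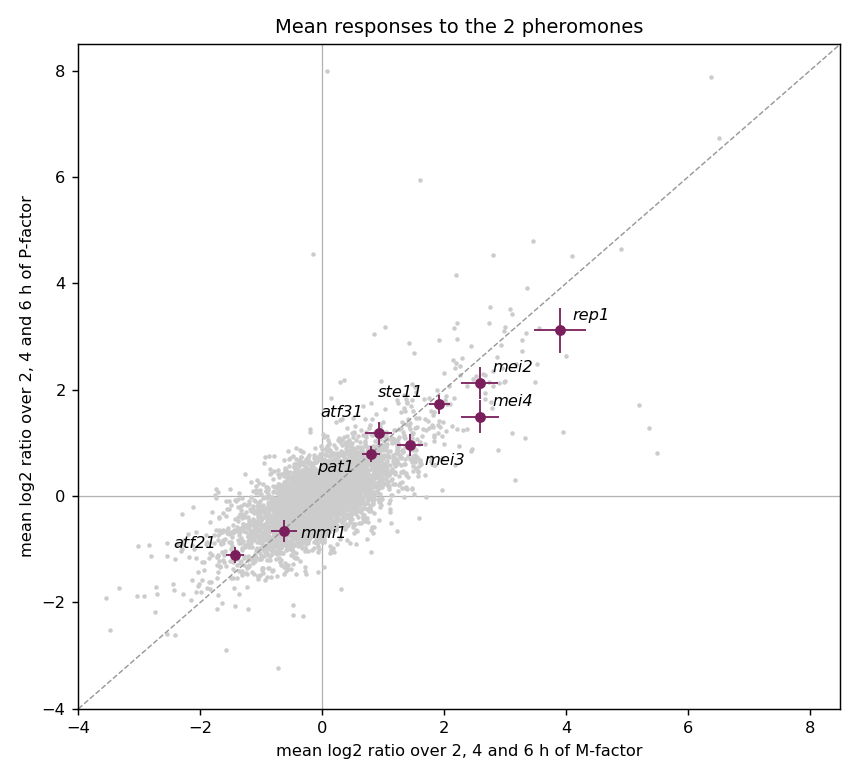
Mean log2 ratio over 2, 4 and 6 h of P-factor in M cells (vertical axis) against the same with M-factor in P cells (horizontal axis). Grey points are all 4094 genes tested, purple points are the 9 regulators tested with bars of 1 SE, and the dashed line marks equal responses. The regulators lie on the same side of 0 for both pheromones, and mei4 is the one farthest below the line.

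No regulator was called as different between the pheromones, where pheromone and cell type cannot be told apart. With limma, 0 of 9 passed at an adjusted p of 0.05 (4.64% of all genes did), and 1 of 9, mei4, had an unadjusted p under 0.05, as did 26.7% of all genes. For mei4 the P-factor mean was lower than the M-factor mean by 1.09 on the log2 scale (95% interval of P-factor minus M-factor -2.07 to -0.12, adjusted p = 0.148). The interval for rep1 ran from -2.14 to 0.57 and that for mei2 from -1.42 to 0.51, so that differences of more than 2-fold were not excluded for either. Narrower intervals were found for pat1 (-0.50 to 0.48), ste11 (-0.75 to 0.36) and atf21 (-0.16 to 0.79). Most of the gap of rep1 came from 1 array: without the 6 h array of M-factor its difference was 0.08.

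The order of response over time was asked with a common slope for both courses. None of the 9 regulators passed after adjustment with limma, and 0.0489% of all genes did. At an unadjusted p under 0.05 there were 3 of 9, beside 11.3% of all genes, namely mei3 (0.19 per hour on the log2 scale), mmi1 (0.20, towards 0 from below) and rep1 (0.40). Without the 6 h array of M-factor the slope of rep1 was 0.12 per hour. As a description, 3 of the 7 regulators that rose peaked at 4 h of M-factor (ste11, mei2 and pat1) and 4 at 6 h (mei3, mei4, rep1 and atf31), whereas with P-factor 6 peaked at 4 h and only rep1 at 6 h. Among genes at least 2-fold up throughout, the 6 h value was the highest for 3 of the 5 regulators with M-factor (47.4% of all such genes) and for 1 of 3 with P-factor (18.8%). Dye and time were not separable at 2 h of M-factor, the one array of that course with the treated RNA in Cy5. Every array of the P-factor course had the treated RNA in Cy3, so dye and treatment were not separable there.

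Set directly against each other, M and P cells were within 2-fold for every regulator. In untreated cells the log2 ratios of M over P ran from -0.15 (mei4) to 0.27 (ste11), and after pheromone from -0.32 (mei3) to 0.17 (atf21). The spread over all genes was narrow too, with an SD of 0.25 untreated and 0.20 after pheromone. On the treated array mei3 ranked 63 and rep1 (-0.28) ranked 84 from the bottom of 4752 genes. None of the 10 was past 2-fold on either array, where 0.842% and 0.442% of all genes were. With 1 array each there is no test. The array of treated cells was read as natural log, which is likely but was not settled.

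The direct arrays and the time courses gave different pictures for rep1 and mei4 at 6 h. For rep1 the 6 h ratio with P-factor was below that with M-factor by a log2 difference (P-factor minus M-factor) of -2.34, but the M over P ratio changed by only -0.32 between the untreated and the treated array. For mei4 these values were -2.03 and -0.04. The other 8 had course differences between -0.61 and 0.47 and direct changes between -0.37 and 0.23. Over all genes the SD of the course difference was 0.61 and that of the direct change 0.22. Most cell type markers parted between the readings too. For mam2, the P-factor receptor gene, the course difference was 5.36 and the direct change 1.40, and for map3, the M-factor receptor gene, they were 0.06 and -2.31. For mam1 they were 1.91 and -0.05, and for map2 -3.13 and -0.18. The readings of mam3 lay nearer to each other, at 2.67 and 2.04. Which of the readings of rep1 and mei4 is nearer to the RNA level was not tested.

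**Figure D3:**
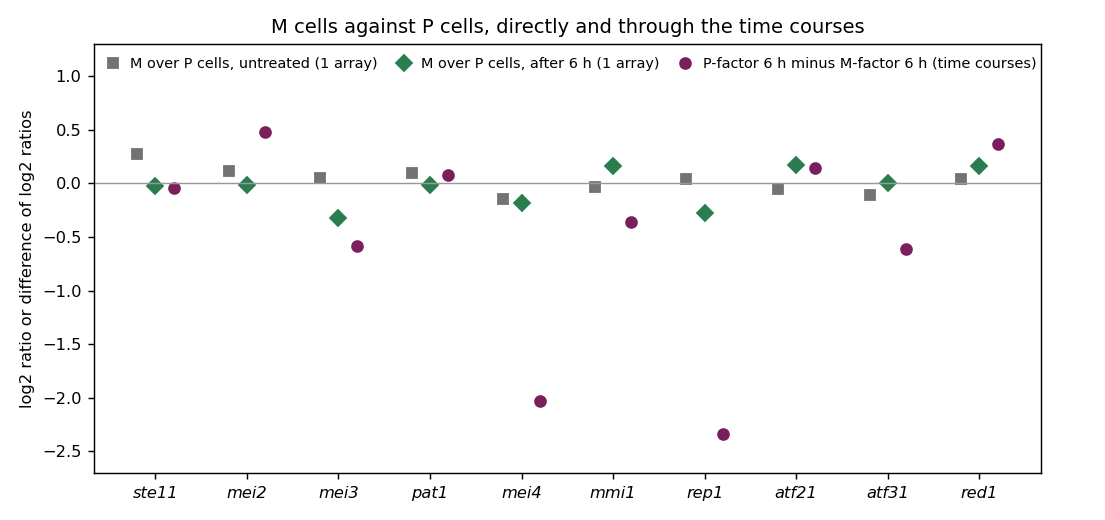
Log2 ratio of M over P cells on the untreated array (grey squares) and on the array after 6 h of pheromone (green diamonds), and the log2 ratio at 6 h of P-factor minus that at 6 h of M-factor (purple circles), for the 10 regulators. Each point rests on 1 or 2 arrays and has no error bar. All squares and diamonds lie between -0.32 and 0.27, while the circles of mei4 and rep1 lie at -2.03 and -2.34.

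Genes that act on the regulators or under them were read as lists, against the shares of all genes called, where M-factor raised 24.1% and lowered 23.2% while P-factor raised 18.1% and lowered 18.3%. A list of inputs to ste11, whose place upstream of it was not tested, held 12 tested genes. Of these, M-factor raised 4 and lowered 3 and P-factor raised 2 and lowered 2. The list medians were 0.28 and 0.10, beside -0.02 and -0.02 over all genes. Counts of 4, 3, 2 and 2 of 12 were near those shares. The ones with the largest means were ste7, which the paper lists as a meiotic suppressor protein (2.98 and 2.14), and msa1, an RNA-binding repressor of sexual differentiation (1.90 and 1.18). Falling were the stress MAP kinase gene sty1 (-1.12 and -0.83) and pac2, a repressor of ste11 (-0.82 and -0.79). These 4 passed with both pheromones, but the P-factor call of sty1 was lost without any one of that course's arrays (adjusted p from 0.0846 to 0.138), that of pac2 without the 4 h array (adjusted p = 0.0537) and that of msa1 without the 6 h array (adjusted p = 0.0567). In the circuit of Mei2 and Pat1, rad25, a 14-3-3 protein gene, rose by 1.47 ± 0.15 and 1.09 ± 0.15, and its relative rad24 passed with M-factor (0.68, adjusted p = 0.0111) and not with P-factor (0.41, adjusted p = 0.0920). The rad24 call was lost without the 2 h or the 4 h array of M-factor (adjusted p = 0.0564 and 0.0582).

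The machinery that works with Mmi1 showed no common direction. Of 13 genes tested, mmi1 included, M-factor raised 2 and lowered 5 while P-factor raised 2 and lowered 1, with medians of -0.18 and -0.16, beside 24.1% up and 23.2% down, and 18.1% and 18.3%, of all genes. The zinc-finger gene red5 rose with both (0.73 and 1.17). The deadenylase gene caf1 and the exosome nuclease gene dis3 fell with M-factor (-1.06 and -0.75), and had P-factor means of -0.35 and -0.30 that did not pass. For neither was the difference between pheromones called (adjusted p = 0.117 for caf1 and 0.17 for dis3). The calls of red5, caf1 and dis3 held with any one array left out.

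Transcripts that Mmi1 is known to remove parted into those that rose and those that did not. Of 6 tested, mei4 included, 3 rose with both pheromones and 1 fell with M-factor. Without mei4 each pheromone raised 2 of 5. Of all genes, 24.1% rose and 23.2% fell with M-factor, and 18.1% rose with P-factor. Besides mei4 the risers were num1, which encodes a cortical anchor of dynein (3.36 ± 0.44 and 3.90 ± 0.44), and ssm4, a dynactin subunit gene (1.88 ± 0.25 and 1.99 ± 0.25). The meiotic cohesin gene rec8 did not pass (-0.44 and -0.20). The meiotic cyclin gene crs1, named after its values were seen, had means of -0.84 ± 0.16 with M-factor (adjusted p = 0.00234) and 0.43 ± 0.16 with P-factor (adjusted p = 0.0581), and was the 1 gene of the list called as different between pheromones (1.27, adjusted p = 0.0239). Of all genes, 4.64% were called as different. The call of crs1 was lost without the 4 h array of M-factor (1.19, adjusted p = 0.0560) and without any one array of P-factor (1.12 to 1.39, adjusted p from 0.0660 to 0.127).

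Genes that Mei4 drives in meiosis were called about as often as all genes (47.2% with M-factor, 36.4% with P-factor). Of 6 tested, M-factor raised 2 and lowered 1 and P-factor raised 1 and lowered 1, with medians of -0.13 and -0.21. The riser with both was mde10, a spore-development metalloprotease gene (1.40 and 1.44), and the faller with both was meu10, a spore wall gene (-0.69 and -0.68). The spore wall glucan synthase gene bgs2 passed with M-factor (0.78, adjusted p = 0.0210) and had -0.22 with P-factor, while spo6 passed with neither (-0.54 and -0.25). The calls of meu10 were lost without the 4 h array of M-factor (adjusted p = 0.0747) and without the 4 h or the 6 h array of P-factor (adjusted p = 0.140 and 0.0943), and that of bgs2 without the 4 h or the 6 h array of M-factor (adjusted p = 0.0986 and 0.130).

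Around rep1, some of the MBF genes rose. Of 5 tested, rep1 included, 3 rose in the M-factor course, 4 in the P-factor course and none fell in either. The list medians were 1.43 and 1.14. Leaving rep1 aside, 2 of 4 were up under M-factor and 3 of 4, res2 among them, under P-factor. The matching shares for the whole array were 24.1% (M-factor) and 18.1% (P-factor) up, with 23.2% and 18.3% down. The corepressor gene nrm1 had means of 1.99 ± 0.18 and 0.99 ± 0.18, cdc10, the common MBF subunit gene, 1.43 ± 0.24 and 1.32 ± 0.24, and res2, the partner subunit gene used in meiosis, 0.59 (adjusted p = 0.0952) and 1.14 (adjusted p = 0.0109). The other DNA-binding subunit gene, res1, named after its values were seen, passed with neither (0.12, adjusted p = 0.679 and 0.14, adjusted p = 0.643). The call of res2 was lost without the 2 h or the 4 h array of P-factor (adjusted p = 0.0656 and 0.0751). Of 9 meiotic transcription factor genes, 5 of them regulators described above, M-factor raised 5 and lowered 2, beside 24.1% and 23.2% of all genes. P-factor raised 4 of the 9 and lowered 1, beside 18.1% and 18.3%. Among the other 4, rsv1 (1.11) rose and cuf2 (-0.78) fell with M-factor and none passed with P-factor, and the call of rsv1 was lost without the 6 h array of M-factor (0.84, adjusted p = 0.0529).

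**Figure D4:**
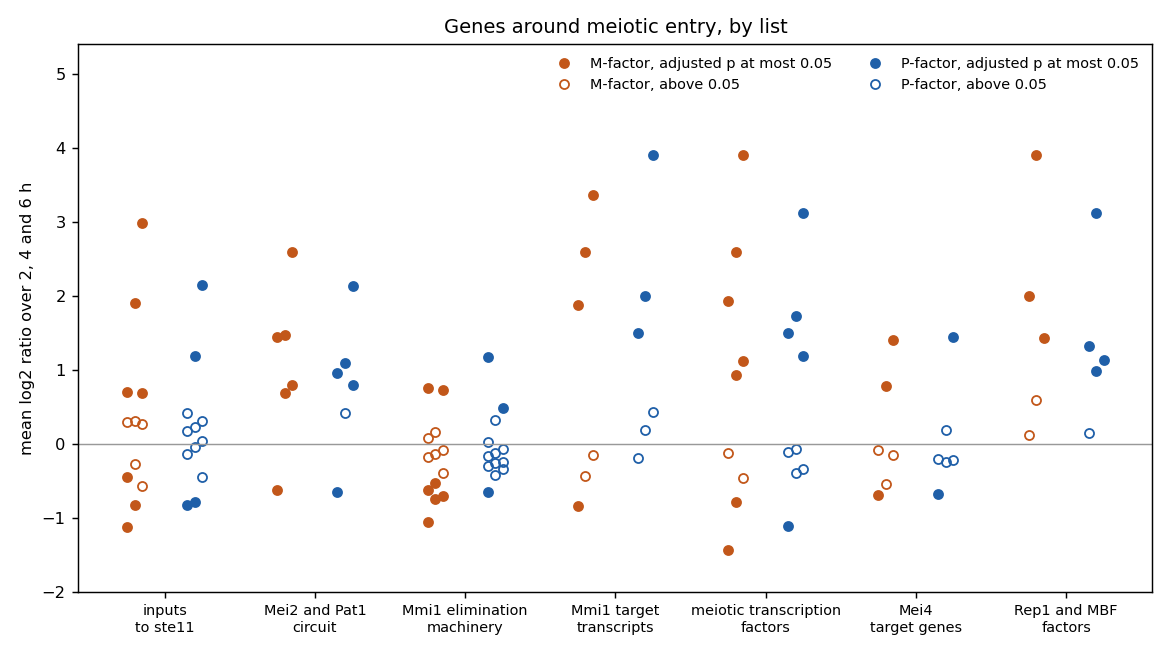
Mean log2 ratio over 2, 4 and 6 h (vertical axis) for the genes of 7 lists around meiotic entry (horizontal axis), with M-factor in orange and P-factor in blue. Each point is 1 gene, filled where its limma adjusted p was at most 0.05 and open where it was above, and a gene may stand in more than 1 list. The Mmi1 machinery is spread around 0, while the circuit of Mei2 and Pat1 and the MBF genes lie mostly above it. The regulators themselves are plotted within the lists: only 2 of the 6 genes tested in that circuit, and 4 of the 5 MBF genes, are not regulators.

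The genes whose 6 ratios lay nearest to those of a regulator were found by the root mean square distance on the log2 scale, over the 6 time course arrays and 4094 genes. For ste11 they were trm734 (0.19) and cdc22, the large subunit gene of ribonucleotide reductase (0.25). For mei2 they were ski2, an RNA helicase gene (0.43), and fsh2 (0.49). Nothing lay as near to rep1, where SPBC146.02 (0.62) and srp14 (0.77) came first, or to mei4, with SPAC22A12.17C (0.54) and mrp21 (0.55). None of the 8 had a 6 h value of M-factor as high as that of rep1, the nearest being SPBC146.02 at 4.73.

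The probes were double-stranded PCR products and do not tell the strands of a locus apart, so the genes on either side of each regulator were also read. Of 18 neighbours tested, M-factor raised 7 and lowered 1, whereas P-factor raised 6 and lowered none, where 24.1% and 18.1% of all genes rose and 23.2% and 18.3% fell. Both neighbours of atf31 rose with both pheromones, rdh54, a recombination gene, by 1.24 and 0.94 and SPAC1296.01C by 0.92 and 0.61. The means of atf31 itself were 0.92 and 1.18. Over the M-factor course the patterns differed: 1.42, 0.43 and 1.86 for rdh54, 0.85, 1.27 and 0.64 for SPAC1296.01C, and 0.33, 0.85 and 1.59 for atf31. Beside mei3, lsb1 rose with both, by 1.498 with M-factor (adjusted p = 0.000111) and 0.91 with P-factor (adjusted p = 0.00216). These means lay close to those of mei3 itself, 1.44 and 0.96. The other neighbour of mei3, cmt1, was close to it in mean with M-factor only (1.57, adjusted p = 0.000523). With P-factor cmt1 had 0.38 (adjusted p = 0.194). The neighbours of mmi1 moved opposite to it: ago1, the Argonaute gene, had 0.41 (adjusted p = 0.0660) and 0.95 (adjusted p = 0.00279), and SPCC736.13 rose by 1.10 and 0.85. Neither neighbour of mei4 passed with either pheromone. Beside ste11, cyc3 rose with M-factor (0.48, adjusted p = 0.0146), beside mei2, omt2 rose with P-factor (0.79, adjusted p = 0.00839), and beside rep1, mmp1 fell with M-factor (-0.75, adjusted p = 0.00387). Beside pat1, mug124 rose with M-factor (0.69, adjusted p = 0.00498) and had -0.22 with P-factor (adjusted p = 0.282). Its other neighbour, ubp11, lacked a value at 2 h of P-factor and was not tested. The values of ubp11 were -0.75, 0.64 and 1.41 over the M-factor course, and 0.90 and 0.96 at 4 and 6 h of P-factor. The part of neighbouring transcripts in the ratios of mei3, atf31 and pat1 was not tested.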

How the data were processed

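Log ratios of 8 two-colour arrays were read as deposited. Per the methods, the authors took spot values from the scans with Imagene and applied a Lowess normalisation in GeneSpring. The deposited values are log2 ratios on the arrays at 2 and 4 h of M-factor and natural log ratios on the others. This base was settled by recomputing the authors' mean folds (within 2%), met for 148 of 154 genes with M-factor, 113 of 154 with P-factor and 154 of 154 in untreated M over P cells. For the treated M over P array it is likely only. Natural logs were converted to log2. Signs were kept as deposited and read as treated over untreated or M over P. Treated RNA was in Cy5 at 2 h of M-factor and in Cy3 on the others.

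Of 11520 spots, 9522 carried 1 gene symbol, 134 several and 1864 none, and only the first were used, which gave 4752 genes, 4743 of them with 2 spots. Symbols were updated through the gene number (9474 spots) or a synonym (26), and 22 kept the name given. A floor ratio of 0.01 was met at 72 spots at 4 h of P-factor and 2 at 6 h of M-factor. The number of arrays limits the precision, and depth is not a measure here.

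Spots were averaged, and limma 3.58.1 in R 4.3.3 (lmFit, eBayes) was fitted to the 4094 genes with all 6 time course values, with 1 mean for each pheromone, their difference, and in a second fit a common slope on hours. Tests were two-sided, with Benjamini-Hochberg adjustment over all 4094 genes. The fits were tested on simulated data. The rest ran in Python 3.11.15 (pandas 2.3.3, numpy 2.4.6), with plots by matplotlib 3.10.9. Columns of per-sample values not used numbered 0.

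Time points pair the courses: deviations from the course means correlated at 0.35 (2 h), 0.105 (4 h) and 0.349 (6 h) between arrays of the same time, and at most at 0.0374 between other times. The fit with time point as a replicate block called the same 9 regulators with each pheromone.

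The regulators and the 10 gene lists were chosen with earlier results of these data known. Named were all regulators, of each list up to 4 genes with the largest absolute mean over both courses (and others where said), the 2 genes nearest in pattern to ste11, mei2, rep1 and mei4, and the neighbours of the regulators. Alternatives were other scalings, single spots, another log base, single arrays left out, a test for more than 1.5-fold and the methods' t-test. A search for motifs in promoters was not run, since promoter sequences were not used here. Gene positions are not given because the build of the probes is not given in the sources used here.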

Additional observations from a re-analysis of the deposited data

Results flagged for a closer look

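The response of crs1, a meiotic cyclin gene on the list of Mmi1 targets, differed between the courses in the test of the difference itself: P-factor minus M-factor was 1.27 on the log2 scale (limma, adjusted p = 0.0239, lost without the 4 h array of M-factor or any one array of P-factor, adjusted p from 0.0560 to 0.127), with ratios below 0 on average in P cells given M-factor (-0.84) and above 0 in M cells given P-factor (0.43). The same test called 4.64% of all genes, and crs1 was picked out after its values were seen. For red1 every measured value was below 0 with M-factor (3 arrays, mean -0.15) and above 0 with P-factor (2 arrays, mean 0.43), a difference of 0.58. That difference was not tested in the fit of complete genes, and where the missing array was allowed it did not pass (adjusted p = 0.158).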

How the results depend on the processing

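With M-factor the regulators called numbered 8 to 9 when 1 array was left out, 6 in the test for more than 1.5-fold (without pat1, mmi1 and atf31), 7 and 8 on the lower and the higher numbered spot alone (mmi1 lost on both, atf31 without a complete lower spot), 1 by the methods' t-test at p of at most 0.01 (ste11) and 0 by that t-test after adjustment. With P-factor they numbered 5 to 9 when 1 array was left out (5 without the 4 h array of P-factor, replicate 2), 3 in the test for more than 1.5-fold (ste11, mei2 and rep1), 6 on either spot alone, 3 by the t-test at 0.01 and 0 after adjustment. All 9 kept their direction under every setting run. Time point as a replicate block changed no call (9, 9 and 0 for the difference). The P-factor count of regulators at least 2-fold up throughout, 3, became 5 after quantile normalization, 1 with every array read as log2, 3 to 5 without 1 array, 6 at 1.5-fold, 1 at 3-fold and 5 for a mean of at least 1. With every spot required past 2-fold, a setting chosen after seeing the data, 4 regulators met it in the M-factor course and 2 in the P-factor course.

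Over all genes, the M-factor count of 1933 fell to 901 and 1262 on single spots and 421 in the 1.5-fold test, and that with P-factor, 1491, to 540 on the lower numbered spot, 689 with every array read as log2, 541 and 718 without the 4 h or the 6 h array, and 208 in the 1.5-fold test. The t-test left 324 and 492 at 0.01, and 5 and 6 after adjustment. The count for the difference, 190, ran from 9 (lower spot) to 296 (without the 2 h array of M-factor), and the 2 slopes became 20 after quantile normalization.

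Differences and slopes changed sign in 15 of 125 and 6 of 125 alternatives, none past the threshold on either side. The difference (P-factor minus M-factor) of ste11 became 0.026 after quantile normalization and 0.0077 on the higher numbered spot. That of pat1 became 0.015 with arrays centred, 0.15 after quantile normalization and 0.24 on the higher spot. That of mmi1 became 0.066 on the lower spot and 0.17 with all log2, and that of atf21 -0.025 after quantile normalization. With 1 array left out, the difference ran from -0.33 to 0.0057 for ste11, -0.13 to 0.13 for pat1, -0.32 to 0.25 for mmi1, -1.28 to 0.080 for rep1 (highest without M-factor at 6 h) and -0.037 to 0.59 for atf31. The slope of mei2 became -0.024 with all log2, that of mei3 -0.029 on the higher spot and that of atf21 -0.045 on the lower spot. With 1 array left out, slopes ran from -0.099 to 0.34 for mei2, -0.035 to 0.056 for atf21 and -0.0025 to 0.26 for atf31. The causes were not tested.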
